A study of Homo sapiens with 2 samples.

Results

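The miRNA cluster made of hsa-mir-424, hsa-mir-503, hsa-mir-542, hsa-mir-450a-2, hsa-mir-450a-1 and hsa-mir-450b (written below without the species prefix) was examined in small RNA bound to AGO2 or AGO3. Its members are the precursors of those names in the deposited count tables and the read stacks annotated with them. All 6 members were found among 1038 precursors with any count, and all 6 are among the 411 with at least 100 counts over both libraries. They lie in a row on the minus strand of the X chromosome and are treated as a single transcription unit.

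The study measured Argonaute-bound small RNA in HEK293 T-Rex cells, a derivative of the human embryonic kidney line HEK293 that carries the tetracycline repressor. The AGO2 group is 1 library from cells expressing FLAG-tagged AGO2, and the AGO3 group is 1 library from cells expressing FLAG-tagged AGO3. Both share the cell line, the tag, NP40 lysis and capture on FLAG beads, and they differ in the protein and also in the 3′ adapter, so that the effects of protein and adapter cannot be told apart. The promoter of the tagged proteins, the number of clones and the amount of tagged protein are not named in the labels. Each group being a single library, differences cannot be set against a spread between replicates and were not tested. Every interval covers counting error only.

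Argonaute proteins hold a miRNA and expose its seed, bases 2 to 8 counted from the 5′ end, which pairs with target mRNAs. A precursor is the hairpin from which the miRNA is cut, and either arm, called 5p or 3p by its place, can be loaded. The pair miR-424 and miR-503 is best known as a brake on the cell cycle that is induced when muscle precursors and monocytes differentiate, and rodent miR-424 is named miR-322. The miRNA miR-542 has been studied as a repressor of the survival protein survivin. The miR-450 miRNAs are less well described.

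The mature sequences show which members are relatives and which are neighbours only. They are those of RefSeq (build GRCh38.p14), 5′ to 3′, with the seed in capitals; the 5p arms come first because they separate the members into groups.
miR-424-5p: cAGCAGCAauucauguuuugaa
miR-503-5p: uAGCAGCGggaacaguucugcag
miR-542-5p: uCGGGGAUcaucaugucacgaga
miR-450a-5p: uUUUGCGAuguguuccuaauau
miR-450b-5p: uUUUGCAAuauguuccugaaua

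The seeds of miR-424-5p and miR-503-5p differ at their last base only, by A8G, where the base of the first-named miRNA stands before the position and positions count from the 5′ end. Over the first 22 bases these arms share 12 (54.5%). The seeds of miR-450a-5p and miR-450b-5p also differ by a single change, G7A, and 16 of 22 bases are shared (72.7%). The 5p arm of mir-450a-1 and that of mir-450a-2 are the same sequence, so reads of this arm cannot be assigned to either copy by sequence. The 3p arms of these copies, which alone distinguish their mature sequences, differ at 3 of 22 bases, by A7G in the seed, G19U and U20C. The 3p arms follow, since each carries a seed of its own.
miR-450a-1-3p: aUUGGGAAcauuuugcauguau
miR-450a-2-3p: aUUGGGGAcauuuugcauucau
miR-450b-3p: uUGGGAUCauuuugcauccaua
miR-424-3p: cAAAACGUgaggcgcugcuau
miR-503-3p: gGGGUAUUguuuccgcugccagg

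The table gave 11 mature entries for the 6 members, with 10 distinct sequences and 10 distinct seeds. Among these entries no seed was shared between different mature sequences; miR-542-3p was not analysed here. Outside the cluster, the seed of miR-424-5p recurred in miR-15a-5p, miR-15b-5p, miR-16-5p, miR-195-5p, miR-497-5p and miR-6838-5p, and that of miR-450b-3p in miR-769-3p. The other 8 of these seeds had no other bearer among the 2545 mature entries. Of the 10 distinct sequences 5 begin with U, those of miR-503-5p, miR-542-5p, miR-450a-5p, miR-450b-5p and miR-450b-3p, while miR-424-5p begins with C.

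Of the members, 5 were compared by hairpin composition, and mir-450a-2 was not. The hairpins of mir-450a-1 and mir-450b hold 27.5% and 28.2% G and C, against 47.4% for mir-542, 51.0% for mir-424 and 59.2% for mir-503. Predicted folding energy per 100 bases was −59.4 kcal/mol for mir-503, a more stable fold than 84.7% of 1562 RefSeq hairpins. It was −42.7 for mir-424, −38.1 for mir-450a-1, −36.0 for mir-542 and −29.2 for mir-450b, the last more stable than 7.43% of hairpins. The median over all hairpins was −45.2 kcal/mol.

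The count tables hold 3485257 precursor counts for AGO2 (52.2% of its reads) and 3055417 for AGO3 (65.5%). A count covers both arms of a hairpin. No precursor was examined as a marker of kidney identity. The 17 precursors taken as markers of other cells summed to 3201 CPM (counts scaled to 1e+06 precursor counts) in AGO2 and 3712 in AGO3. The neuronal mir-9 and mir-124 copies held 2744 CPM in AGO2 and 3032 in AGO3, and the smooth muscle and fibroblast markers mir-143 and mir-145 held 382 and 584. The leukocyte markers held 56.5 and 60.2 CPM, all of it from mir-142 since mir-223 was at 0 in both libraries. The muscle markers held 17.2 and 35.7 CPM, with mir-206 at 0 in both, and the liver mir-122 and the red cell mir-451a had at most 3 counts. Their part in the results below was not tested.

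The cluster was loaded into both proteins, and mir-424 held most of it. Together the 6 members had 73966 counts in AGO2, 2.12% (2.11 to 2.14) of that library, and 53172 in AGO3, 1.74% (1.73 to 1.75). The brackets are exact 95% binomial intervals. On the log2 scale the AGO3 share was −0.29 (−0.30 to −0.27) relative to the AGO2 share. This sign depends on the denominator, because relative to all reads of each library, unmapped ones included, the cluster was at 0.040.

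The cell cycle miRNA mir-424 had 61385 counts in AGO2 (17613 CPM) and 43276 in AGO3 (14164 CPM). It ranked 13 among all precursors in AGO2 and 15 in AGO3. Its neighbour and near seed relative mir-503 had 3637 counts in AGO2 (1044 CPM) and 2731 in AGO3 (894 CPM), and ranked 111 and 137. Each precursor thus had a lower CPM in AGO3, and mir-503 lay more than 15-fold below mir-424 in both libraries.

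Next along the transcript, mir-542 had 2601 counts in AGO2 (746 CPM) and 2418 in AGO3 (791 CPM). The copy mir-450a-2 had 1261 counts (361.8 CPM) and 1350 counts (442 CPM), so both of these hairpins had a higher CPM in AGO3. The other copy, mir-450a-1, had 1185 counts in AGO2 (340.0 CPM) and 713 in AGO3 (233 CPM). The last hairpin, mir-450b, had 3897 counts (1118 CPM) and 2684 counts (878 CPM), and like mir-424 it was lower in AGO3.

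**Figure D1:**
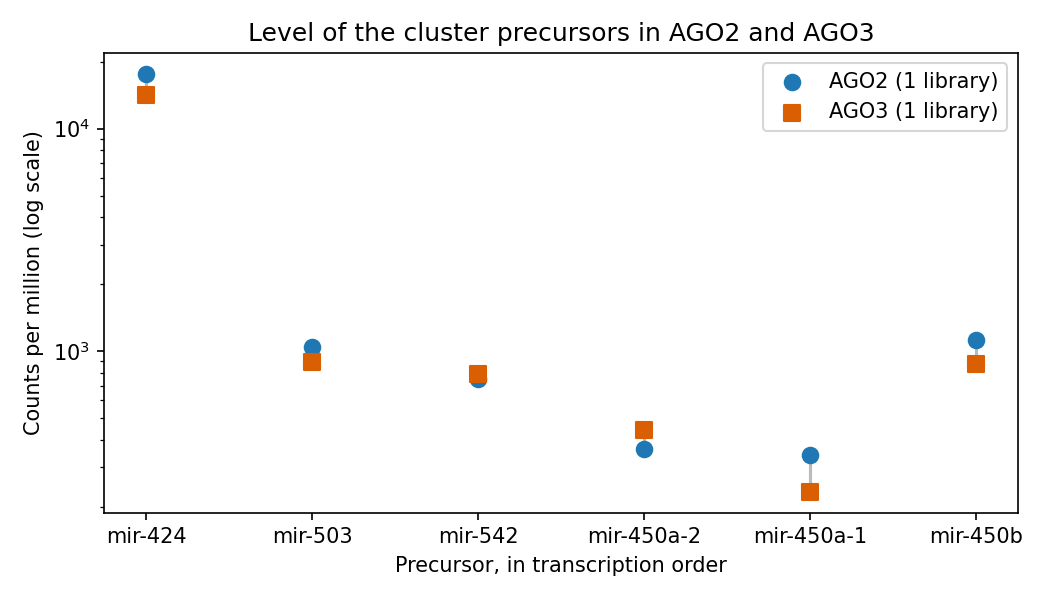
Level of each member in the AGO2 library (circles) and the AGO3 library (squares), in CPM on a log axis, with members in the order of transcription. The hairpin mir-424 lies at 17613 and 14164 CPM, and the other members lie between 233 and 1118 CPM.

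In order of abundance, AGO2 held mir-424, mir-450b, mir-503, mir-542, mir-450a-2 and mir-450a-1. In AGO3, mir-503 and mir-450b stood in the opposite order. These were close: mir-450b had 1.07 times (1.02 to 1.12) the counts of mir-503 in AGO2, whereas in AGO3 mir-503 had 1.02 times (0.964 to 1.07) those of mir-450b, an interval that includes equality. The 450a copies could not be ordered in AGO2, where mir-450a-2 had 1.06 times (0.982 to 1.15) the counts of mir-450a-1. In AGO3 the same ratio was 1.89 (1.73 to 2.08). All other neighbours in these orders differed beyond counting error, mir-424 exceeding the next member 15.8-fold in each library.

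The comparison of AGO3 with AGO2 asked which hairpins differed between the proteins. None of the 6 members was 2-fold apart, whereas 24.6% of the 411 precursors with at least 100 counts were. With 1.5-fold as the limit the members counted were again 0, beside 50.6% of all. Under each of 3 other scalings, taken up below, 1 member passed that limit. It was mir-450a-1, lower in AGO3, with TMM (−0.70) and median-of-ratios scaling (−0.73). Relative to all reads it was mir-450a-2, higher in AGO3 (0.61). The share of all precursors past 1.5-fold was not computed for these scalings. The counting interval excluded equal shares for 6 of 6 members, and for 84.7% of all precursors. It lay below equality for 4 members (39.4% of all precursors) and above it for 2 (45.3% of all). At this depth such an interval is narrow and sets most precursors apart.

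Lower shares in AGO3 were seen for 4 members, where 46.7% of all precursors were lower. On the log2 scale the ratio of AGO3 to AGO2 was −0.31 (−0.33 to −0.30) for mir-424 and −0.22 (−0.30 to −0.15) for mir-503. It was −0.35 (−0.42 to −0.28) for mir-450b and −0.54 (−0.68 to −0.41) for mir-450a-1. Higher shares were seen for mir-542 at 0.085 (0.0042 to 0.17) and mir-450a-2 at 0.29 (0.18 to 0.40). The median of the members was −0.27, beside 0.08 over all 411 precursors, and their median size without sign was 0.30 beside 0.59.

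**Figure D2:**
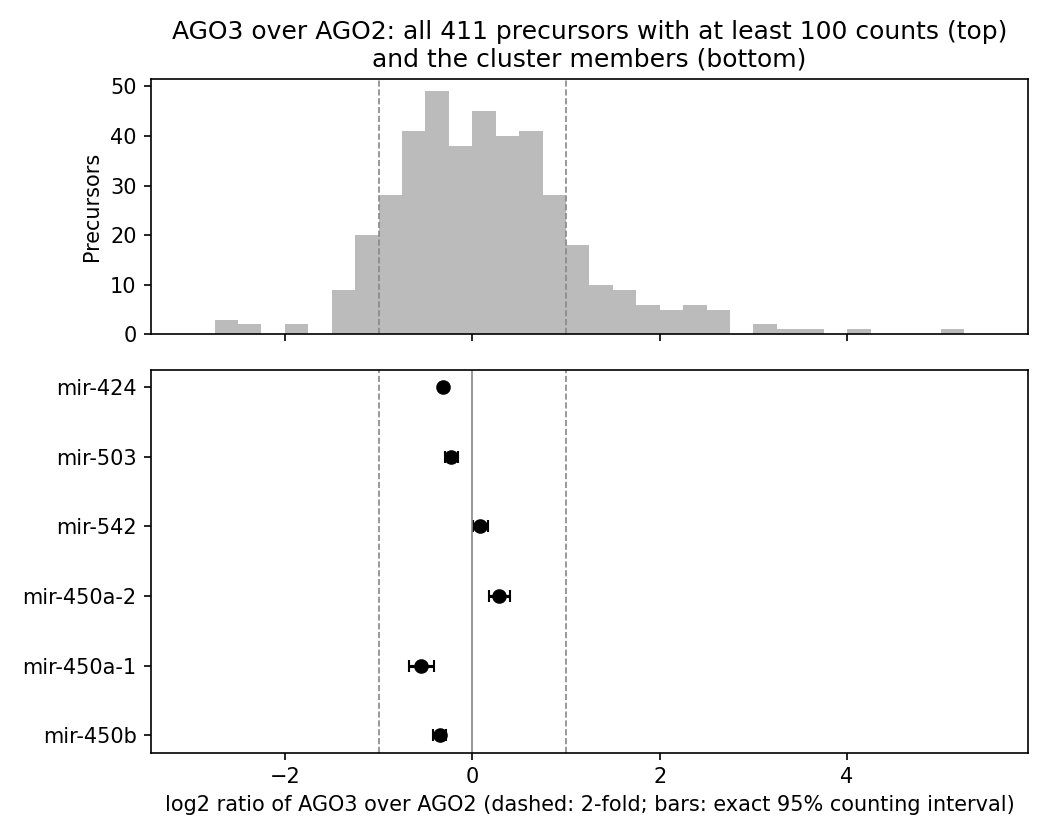
Log2 ratio of AGO3 over AGO2 for all 411 precursors with at least 100 counts (histogram, top) and for the 6 members with exact 95% counting intervals (points and bars, bottom); dashed lines mark 2-fold. The members lie between −0.54 and 0.29, all inside the dashed lines, and their signs are those of scaling to precursor counts.

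Signs so close to 0 turned on the scaling between libraries. TMM scaling shifted every log2 ratio by −0.16 and median-of-ratios scaling by −0.19, whereas scaling to all reads shifted them by 0.33. With TMM mir-542 turned to −0.076, and with all reads mir-424 turned to 0.012 and mir-503 to 0.10. The signs of mir-450b, mir-450a-1 and mir-450a-2 were the same under these 3 scalings. Some of these values were near 0, as mir-450b was at −0.022 with all reads and mir-450a-2 at 0.098 with median-of-ratios scaling. Members lower in AGO3 numbered 5 with TMM and with median-of-ratios scaling and 2 with all reads, where 53.8%, 55.5% and 33.1% of the 411 precursors were lower. No member was 2-fold apart under any of the 3, while precursors at least 2-fold higher and lower were 56 and 52, 56 and 55, and 107 and 16, against 65 and 36 with precursor counts.

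Differences among the members do not depend on the scaling. Of the 15 pairs of members, 14 differed in log2 ratio beyond counting error, with intervals not adjusted for their number. The same share over pairs of all precursors was not computed. At this depth the interval of a single precursor already excluded equal shares for 84.7% of all, so this count does not set the cluster apart. The exception was mir-424 against mir-450b, which lie at the ends of the cluster and differed by 0.03 (−0.04 to 0.11). The pair mir-424 and mir-503 differed by −0.09 (−0.17 to −0.02). The widest gap was that of mir-450a-2 over mir-450a-1, 0.83 (0.65 to 1.01), although these copies carry the same 5p arm.

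The labels do not say how reads that match both 450a copies were counted, so the counts of these copies are uncertain as their own. Summed, they had 2446 counts with AGO2 and 2063 with AGO3. Their log2 ratio was −0.056 (−0.14 to 0.029), an interval that includes equal shares. A gap of this size was common among numbered copies of other miRNAs: of 53 other pairs of copies with at least 100 counts each, 23 differed by more, and the median difference of the 53 was 0.62. These pairs came from 36 miRNAs, and pairs that share a copy are not independent.

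The make-up of the cluster was thus close but not equal in both proteins. In AGO2, mir-424 made up 83.0% (82.7 to 83.3) of the cluster counts, and in AGO3 81.4% (81.1 to 81.7). The share of mir-503 was 4.92% (4.76 to 5.08) and 5.14% (4.95 to 5.33), intervals that overlap. For mir-450b the shares also overlapped, 5.27% (5.11 to 5.43) and 5.05% (4.86 to 5.24). The share of mir-542 was 3.52% (3.38 to 3.65) in AGO2 and 4.55% (4.37 to 4.73) in AGO3, and that of mir-450a-2 was 1.70% (1.61 to 1.80) and 2.54% (2.41 to 2.68). That of mir-450a-1 was 1.60% (1.51 to 1.70) in AGO2 and 1.34% (1.24 to 1.44) in AGO3.

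Hairpins of the same transcript can be compared with neighbouring hairpins elsewhere. Neighbours were precursors adjacent on the same strand within 10 kb, each with at least 100 counts and with stacks that name no other precursor. The 5 neighbouring pairs of the cluster differed in log2 ratio by 0.09 to 0.83, with a median of 0.20. The 49 other pairs differed by 0.05 to 2.56, with a median of 0.62, and 17 of them differed by at least 1, as none of the cluster did. Pairs that share a hairpin are not independent, and this difference between the sets was not tested. Both sets include numbered copies, whose counts may hold reads of their other copies, and the medians without such pairs were not computed.

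**Figure D3:**
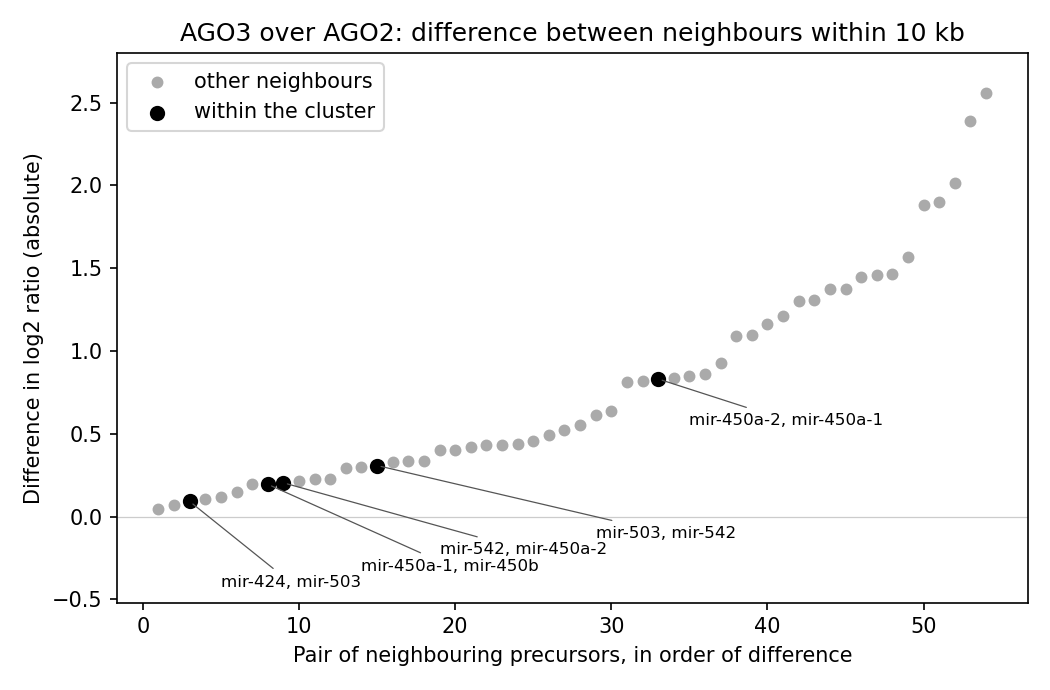
Absolute difference in log2 ratio of AGO3 over AGO2 between neighbouring precursors, each point a pair, in order of size; black points are the 5 pairs of the cluster and grey points the 49 others. Of the cluster, 4 pairs lie between 0.09 and 0.31 and the 450a copies at 0.83.

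The spread of log2 ratios within other clusters of the X chromosome went both ways. The cluster from mir-106a to mir-363, a paralogue of the growth-promoting miR-17~92 cluster, summed to 1.63% of AGO2 and 1.56% of AGO3 counts, and its 6 hairpins ranged from −1.49 (mir-19b-2) to 1.28 (mir-363). In the cluster from mir-532 to mir-502 the 7 hairpins with at least 100 counts ranged from −1.45 (mir-362) to 1.25 (mir-188). Its sum had a log2 ratio of 0.80 (0.77 to 0.84). Of these 7 hairpins, however, 5 were lower in AGO3 and 2 higher, beside 46.7% of all precursors lower, and their median was −0.58. The range of the miR-424 cluster was 0.83, against 2.77 and 2.70 in these clusters. The pair mir-222 and mir-221 had ratios of 1.46 and 0.84, a narrower range of 0.62. Copies elsewhere may share reads with mir-19b-2 and mir-92a-2, whose own pooled stacks held 0.037 and 0.0029 reads per count. The median was 6.97 among 274 precursors without a numbered copy. The sums of the mir-106a cluster and of the X-linked precursors include the counts of both, whose place of origin was not tested. The range of 2.77 also includes both, with mir-19b-2 at its low end. The other 4 hairpins of that cluster were higher in AGO3, beside 53.3% of all precursors. Their log2 ratios ran from 0.36 (mir-106a) to 1.28 (mir-363), so the wide range rests on mir-19b-2. Over the 74 X-linked precursors, the miR-424 cluster held 21.2% (21.1 to 21.4) of the AGO2 and 19.6% (19.4 to 19.7) of the AGO3 counts.

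The seed of miR-424-5p is that of the miR-15/16 family, which also restrains cell cycle genes, and the sequences are shown to place miR-424 among its relatives.
miR-15a-5p: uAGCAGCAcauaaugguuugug
miR-15b-5p: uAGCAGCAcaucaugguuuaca
miR-16-5p: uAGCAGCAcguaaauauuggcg
miR-195-5p: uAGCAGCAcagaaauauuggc
miR-497-5p: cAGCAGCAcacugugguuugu

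The 6 counted relatives, mir-15a, mir-15b, mir-16-1, mir-16-2, mir-195 and mir-497, were all lower in AGO3, as were 46.7% of all precursors, and 2 of them were at least 2-fold lower, beside 8.76% of all precursors. Relative to all reads mir-497 turned to 0.12, the other 5 stayed lower and 0 were 2-fold lower, beside 3.89% of all precursors. With TMM and with median-of-ratios scaling 3 were 2-fold lower, beside 12.7% and 13.4% of all. Their summed log2 ratio was −0.95 (−0.96 to −0.94), lower than that of mir-424 by any scaling, since both shift together. The ratio nearest to mir-424 among them was that of mir-497 at −0.21, and the farthest that of mir-15a at −1.21. Of the counts of these 7 precursors, mir-424 held 19.2% (19.03 to 19.30) in AGO2 and 26.9% (26.7 to 27.1) in AGO3. Reads may be shared between mir-16-1 and mir-16-2. Seed bearers were defined by sequence, and which arm was loaded is not shown by the counts. The comparison with them was chosen with earlier results of these data known. For miR-450b-3p, the precursor of its seed relative miR-769-3p had 3833 counts in AGO2 and 3327 in AGO3.

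The precursors most like each member in level were found by the distance in log2(CPM + 1) over both libraries. For mir-424 the nearest were mir-151a, at 0.27 log2 units, and mir-27a, at 0.38. For mir-503 and for mir-450b the nearest was mir-551a, and each had the other as second nearest, at 0.10 units. For mir-542 they were mir-505 and mir-4523, for mir-450a-2 mir-1250 and mir-301b, and for mir-450a-1 mir-95 and mir-942. These are likenesses over 2 libraries only.

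The pooled read stacks place the members in the genome (build hg19). A stack is a run of overlapping reads on a strand. Which libraries the list pools is not given, and it does not separate AGO2 from AGO3. It holds 68649476 reads, against 6674064 in the AGO2 library and 4667236 in the AGO3 library. All stacks of members lie on the minus strand, so transcription runs from high to low coordinates. The stack of mir-424 lies at chrX:133680672-133680736, in the annotated exon of MIR424, with 215140 reads. That of mir-503 follows after 229 bases at chrX:133680323-133680442, with 85302 reads, within an intron of the noncoding gene MGC16121. After a gap of 4850 bases mir-542 lies at chrX:133675381-133675472, with 22112 reads.

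The mir-450 hairpins close the cluster. The stack of mir-450a-2 at chrX:133674558-133674636 had 8196 reads, and that of mir-450a-1 at chrX:133674387-133674414 had 1764. For mir-450b there were 2 stacks, 10 bases apart: chrX:133674258-133674302, nearer the 5′ end, with 15008 reads, and chrX:133674224-133674247 with 171. These are 7 stacks in a span of 6513 bases, and none of them names a second precursor.

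**Figure D4:**
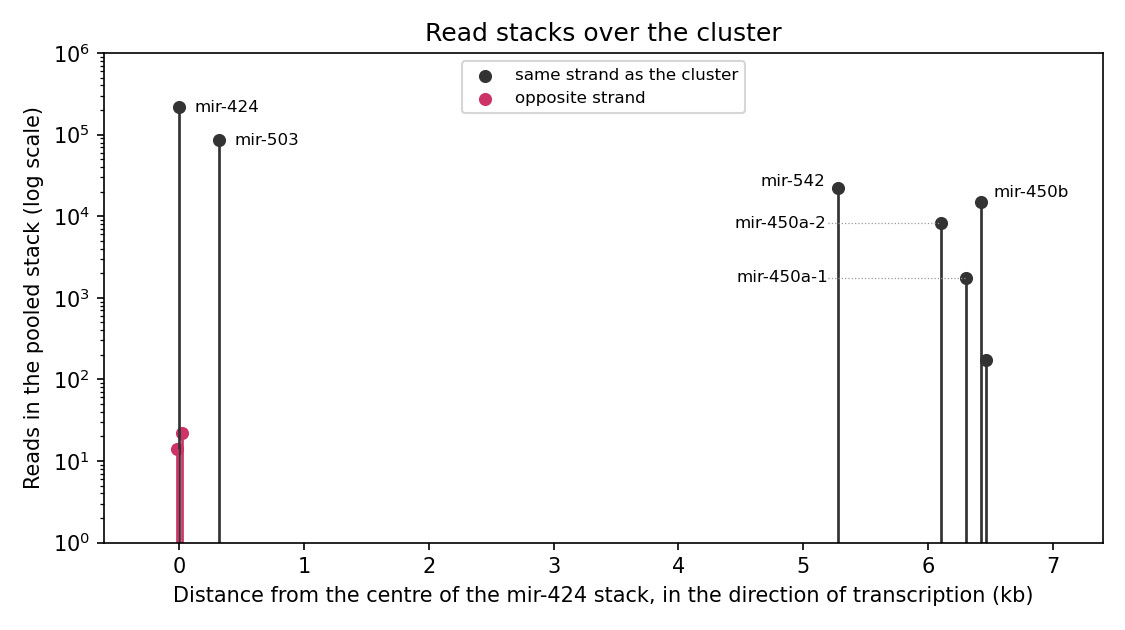
Reads of each pooled stack (log axis) against its distance from the centre of the mir-424 stack in the direction of transcription; dark points are on the strand of the cluster and the 2 coloured points on the opposite strand. The stacks of mir-424 (215140 reads) and mir-503 (85302 reads) stand together, and the other members follow beyond 5 kb.

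Almost no reads fell between the hairpins. Within the span and 10 kb on either side, the member stacks held 347693 of 347748 reads (99.98%). Another 17 stacks there held 19 reads in all, with at most 2 reads each, and only 1 of these stacks lay between the hairpins. Opposite to mir-424, 2 stacks of 22 and 14 reads lay at chrX:133680673-133680696 and chrX:133680713-133680735, 0.167 reads per 1000 of the sense stack. No stack was annotated as antisense to any other member. Of 310 precursors with at least 100 counts and 100 reads in stacks of their own, 26.1% had antisense reads, with a median of 0.456 per 1000 among these.

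Stacks differed in shape. The stack of mir-503 was 120 bases long, longer than those of 98.7% of the 310 precursors and longer than its RefSeq hairpin of 71 bases. The entropy score of its reads, higher where the read profile is more varied, was 2.47, above 97.4% of them. The stack of mir-450a-1 was the shortest of the deepest stacks of the members, at 28 bases, with a score of 0.43. Differences from the reference sequence ran from 0.125 per read for mir-450a-2 to 0.172 for mir-450a-1, beside a median of 0.155 over the 310.

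Stack reads and counts gave different pictures of the cluster. Of the 347693 stack reads of the cluster, mir-503 held 24.5%, against about 5% of the counts in either library, and mir-424 held 61.9%. Among the 274 precursors without a numbered copy the median was 6.97 stack reads per count. The value was 13.4 for mir-503, 4.41 for mir-542, 2.31 for mir-450b and 2.06 for mir-424, so that mir-424 lay at percentile 16.8 of these precursors and mir-503 at percentile 70.4. The copies stood at 3.14 (mir-450a-2) and 0.929 (mir-450a-1). Stacks were called on a pool of libraries that is larger than both count tables, and the reason for the unequal ratios was not tested.

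**Figure D5:**
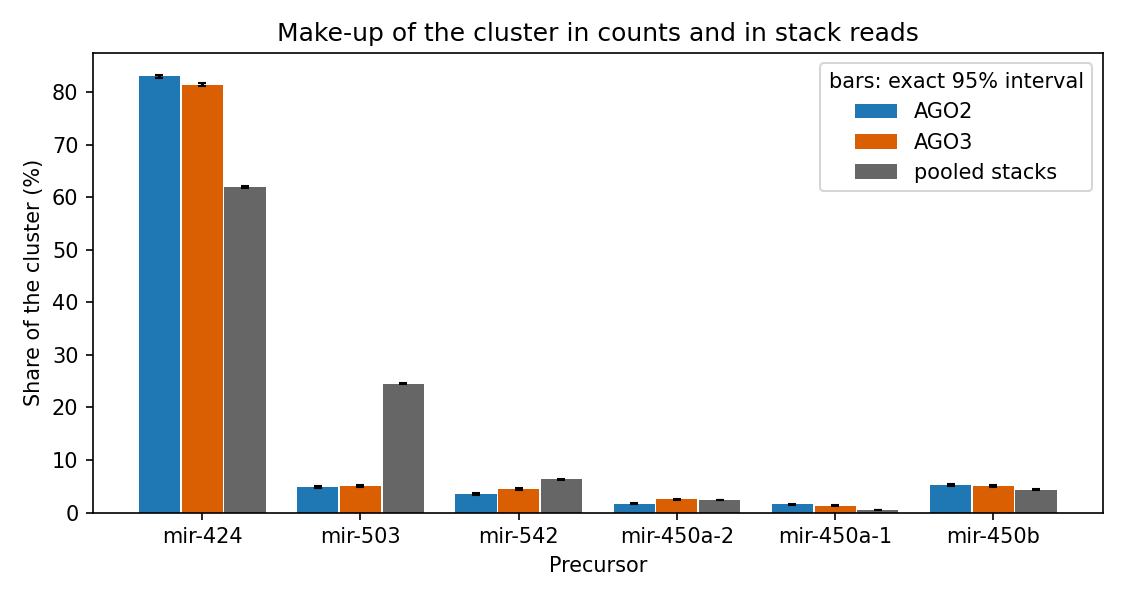
Share of each member in the cluster, in percent, in the counts of AGO2 and AGO3 and in the pooled stack reads; error bars are exact 95% binomial intervals. The bars of mir-424 stand at 83.0%, 81.4% and 61.9%, and those of mir-503 at 4.92%, 5.14% and 24.5%.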

How the data were processed

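The authors deposited raw counts per miRNA precursor for each library, per the file headers with total, mapped and unmapped reads, and a list of read stacks with the count of reads and an entropy score per stack, which the deposited list gives in its fields. The submitters' processing notes list Bowtie2 2.1.0 and hg19 but not what each was used for, and do not say how multiply matching reads were counted. Reads carry no usable molecular identifiers, so duplicates cannot be told apart and intervals treat each read as independent. They cover this counting error only and may be too narrow.

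For each precursor a log2 ratio (AGO3 to AGO2) was taken from shares of precursor counts with a pseudocount of 0.5, and its exact (Clopper-Pearson) 95% interval from the AGO3 part of the counts. Intervals for pairs of members came from the conditional odds ratio. A difference of 2-fold among precursors with at least 100 counts stood in for a test. A count of 0 allows up to 3 counts, 8.61e-05% of AGO2 and 9.82e-05% of AGO3. The computation was tested on simulated counts. Chromosomes and sequences came from RefSeq; 999 of 1038 precursors matched a RefSeq symbol. Hairpins were folded with ViennaRNA 2.7.2.

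Members, lists, comparisons and the rule for named precursors were chosen with earlier results of these data known. Named were the 6 members, the 6 seed relatives, the highest and lowest hairpin of other X clusters, the 2 precursors nearest in level to each member and the stacks of members. The precursor mir-769 was named from its seed, and the markers, mir-92a-2 and the value of mir-106a after their values were seen. Alternatives covered scaling (TMM from edgeR 4.0.16), pseudocount, minimum, fold, stacks and neighbour distance. Computation used R 4.3.3 and Python 3.11.15 with scipy 1.17.1, numpy 2.4.6, matplotlib 3.10.9 and pandas 2.3.3.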

Additional observations from a re-analysis of the deposited data

How the results depend on the processing

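No paired analysis was possible because each group has 1 library and no test was made, and for the same reason no library could be left out. The summed log2 ratio of the cluster was −0.29, and it was −0.45 with TMM, −0.48 with median-of-ratios scaling, −0.16 without mir-424 and 0.040, of opposite sign, relative to all reads. Relative to all reads mir-424 was at 0.012 and mir-503 at 0.10, both of opposite sign. For mir-542 the sign turned with TMM (−0.076) and median-of-ratios scaling (−0.11), and for mir-450a-2 with copies summed (−0.056). Each of these follows from the changed denominator or from the sum itself. With reads of the pooled stacks in place of counts, the shares of the cluster were 61.9% for mir-424, 24.5% for mir-503, 6.36% for mir-542, 2.36% for mir-450a-2, 0.507% for mir-450a-1 and 4.37% for mir-450b; the cause was not tested. No member was 2-fold apart with a minimum of 20 or 1000 counts or none, where 28.8%, 24.4% and 42.0% of all precursors were. A pseudocount of 5 left the sign of every member's log2 ratio. Taking the deepest stack only gave 347522 stack reads for the cluster against 347693. The median difference between neighbours was 0.20 in the cluster and 0.56 elsewhere within 2 kb, and 0.20 and 0.72 with at least 1000 counts. The smallest member count, 713, limits its log2 ratio to an interval of −0.68 to −0.41.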
